A study of Mus musculus with 9 samples.

Results

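The genes that carry glucose to pyruvate and lactate, together with the pentose phosphate branch and the genes that steer both, were followed through ERG-driven leukemia and wild type bone marrow. The set was given by symbol and holds 39 genes, of which 34 were measured among 19938 genes on the array. Gapdh was read only by 25 probe sets annotated with several genes at once, and Gpi1, Eno1, Pfkfb1 and G6pdx had no probe set under their own symbol in the annotation used, so these 5 were not analysed here. Where a gene had more than 1 probe set (a group of short probes that read the same transcript region), the one brightest on average across all 9 arrays was used, which concerned 7 members. All mice were C57BL6, and 9 Affymetrix whole-transcript arrays fell into 3 groups of 3. ERG leukemia marrow came from the femurs of 3 mice that carried an ERG transgene, killed once signs of myeloid leukemia appeared, with 1 mouse per array and the marrow taken whole. Wild type lineage-negative marrow came from 9 mice, had been depleted of cells bearing mature blood cell markers with a Miltenyi kit, and was pooled from 3 mice per array. Wild type whole marrow came from 3 mice without depletion, with 1 mouse per array. For the transgene, neither its promoter nor its species was given in the sources used here, and the ages and sexes of the mice were not given either. No group received a drug.

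Glycolysis splits glucose into pyruvate, and lactate dehydrogenase turns pyruvate into lactate when it is not passed to the mitochondria. Most steps can be run by several isozymes encoded by separate genes, and blood cell types differ in which they use: mature red cells, which lack mitochondria, use the pyruvate kinase of Pklr, while neutrophils rely on glycolysis and draw NADPH for their oxidative burst from the pentose phosphate pathway. Many genes of the set are known targets of hypoxia-inducible factor and of MYC.

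The arrays were even in brightness, with medians of 32.3 to 34.4 in units of RMA intensity (background-corrected, normalized signal on a linear scale), and within-group correlations across genes ran between 0.971 and 0.995. Among the leukemias they were 0.971 for 1 and 2, 0.976 for 2 and 3, and 0.987 for 1 and 3. Within the measured members, leukemia 2 was the lowest leukemia in 20 and the highest in 8 (median log2 deviation -0.127). Whole marrow array 3 was the lowest of its group in 23 members and the highest in 6 (-0.236). Changes on leaving out either array are thus partly shared between members. Mouse Erg, which need not report the transgene, averaged a log2 intensity of 6.37 ± 0.21 in the libraries labelled transgenic, against 6.80 ± 0.23 in lineage-negative pools and 7.29 ± 0.30 in whole marrow (SD, n = 3 each). Marker genes of blood cell types differed between the groups. The summed intensity of 10 mature neutrophil markers was 12706 to 19002 in leukemias, 596 to 1826 in pools and 33044 to 39595 in whole marrow, and by limma 7 of the 10 were lower in leukemia than in whole marrow and 9 higher than in pools. For 9 erythroid markers the sums were 5174 to 9345 in leukemias, 5395 to 7499 in pools and 1445 to 4399 in whole marrow, and 6 of the 9 were higher in leukemia than in whole marrow. For 9 B cell markers, all lower in leukemia than in whole marrow, the sums were 383 to 568 in leukemias, 328 to 494 in pools and 1260 to 5397 in whole marrow. Of 9 T and NK cell markers 7 were lower in leukemia than in whole marrow. Against pools, 6 of 10 stem and progenitor markers and 4 of 8 megakaryocyte markers were lower in leukemia, with 0 of either list higher. Of 9 monocyte and macrophage markers, 3 were higher in leukemia than in pools. Against whole marrow, 1 stem and progenitor marker was higher in leukemia and 3 were lower, and the same counts held for megakaryocyte markers. Slamf1 of the stem list had mean intensities of 557.9 in leukemias, 227.4 in pools and 61.9 in whole marrow. For stroma, bone and endothelium markers, 2 of 9 were higher and 2 lower in leukemia against whole marrow. Over all genes, 24.5% were called in leukemia against whole marrow and 8.69% against pools. By group mean, 5 of the 9 B cell markers in leukemias and 7 in pools lay below 33.4, the median intensity of all probe sets. So did 5 of the 9 T and NK cell markers in each, and 3 of the 9 monocyte and macrophage markers in pools. What part the cell types had in the values below was not tested. In bulk marrow, fewer cells of a type and less RNA per cell cannot be told apart.

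Against wild type whole marrow, members differed in both directions, and opposite calls fell within the pyruvate kinases (Pklr higher, Pkm lower), the lactate carriers (Slc16a1 higher, Slc16a3 lower) and the Pfkfb genes (Pfkfb2 higher, Pfkfb3 and Pfkfb4 lower). By limma, with p-values adjusted over all genes by the Benjamini-Hochberg method and a threshold of 0.05, 11 of the 34 measured members were higher in leukemia, 9 were lower and 14 did not pass. The background was 24.5% of all genes called, with 14.6% higher and 9.93% lower, and the members past the threshold made up 58.8%. Of all calls, 59.4% were higher with the deposited values, 47.7% after centring each array on its 75th percentile and 47.2% after cyclic loess, while under these scalings the members gave 10 higher with 9 lower, then 10 higher with 11 lower. The arrays of the 2 groups did not overlap in 21 members, set against 37.1% of all genes. The median log2 difference was 0.08 over the members and -0.02 over all genes.

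Against wild type lineage-negative marrow few members differed. In leukemia 4 were higher, namely Aldoc, Slc16a3, Bnip3 and Bnip3l, 1 was lower, Pdk1, and 29 did not pass, which is 14.7% of members called against a background of 8.69% of all genes (2.95% higher and 5.74% lower). After 75th percentile centring 6 members were higher and 1 lower, and after cyclic loess 5 were higher and Pdk1 did not pass. With array weights 11 were higher, as Aldoa, Pgk1, Eno3, Slc2a1, Pfkfb4, Bpgm and Pgd joined the 4, and 7 were higher without leukemia 2 but 3 without any 1 pool, while the lower call of Pdk1 was lost without any 1 array. Of all calls 34% were higher with the deposited values, 44% after the centring and 44.9% after the loess. The arrays did not overlap in 11 members, against 27.9% of all genes. The median was 0.16 over members and 0.01 over all genes.

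Between the wild type groups more members passed than in either other comparison. In lineage-negative marrow 8 were higher, 15 lower and 11 not past the threshold when set against whole marrow, so that 67.6% of members were called against a background of 34.7% of all genes (21.7% higher and 13% lower). The arrays did not overlap in 25 members, with a background of 50%. The median was -0.25 over members and -0.03 over all genes, and of all calls 62.6% were higher as deposited, 50.3% after 75th percentile centring and 51.2% after cyclic loess. The 3 comparisons share arrays in pairs and are not independent of each other.

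**Figure D1:**
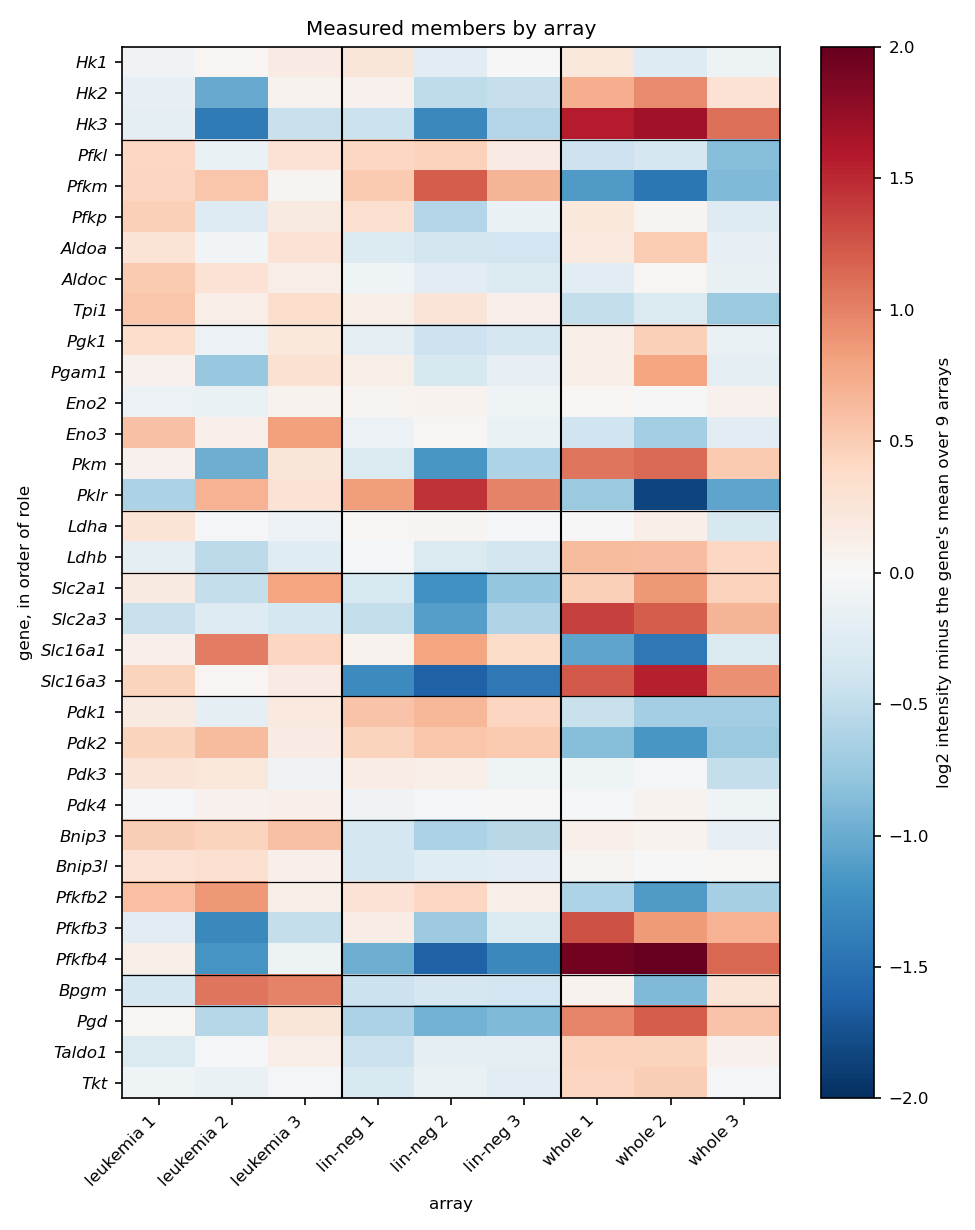
Log2 intensity of each measured member (rows, in order of role) on each of the 9 arrays (columns, leukemia, then lineage-negative, then whole marrow), with the gene's mean over the 9 arrays taken away, so that red is above and blue below that mean. Hk3, Pfkfb4 and Slc16a3 stand high in the 3 whole marrow arrays, and Pfkm, Pdk2 and Pklr stand low there.

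**Figure D2:**
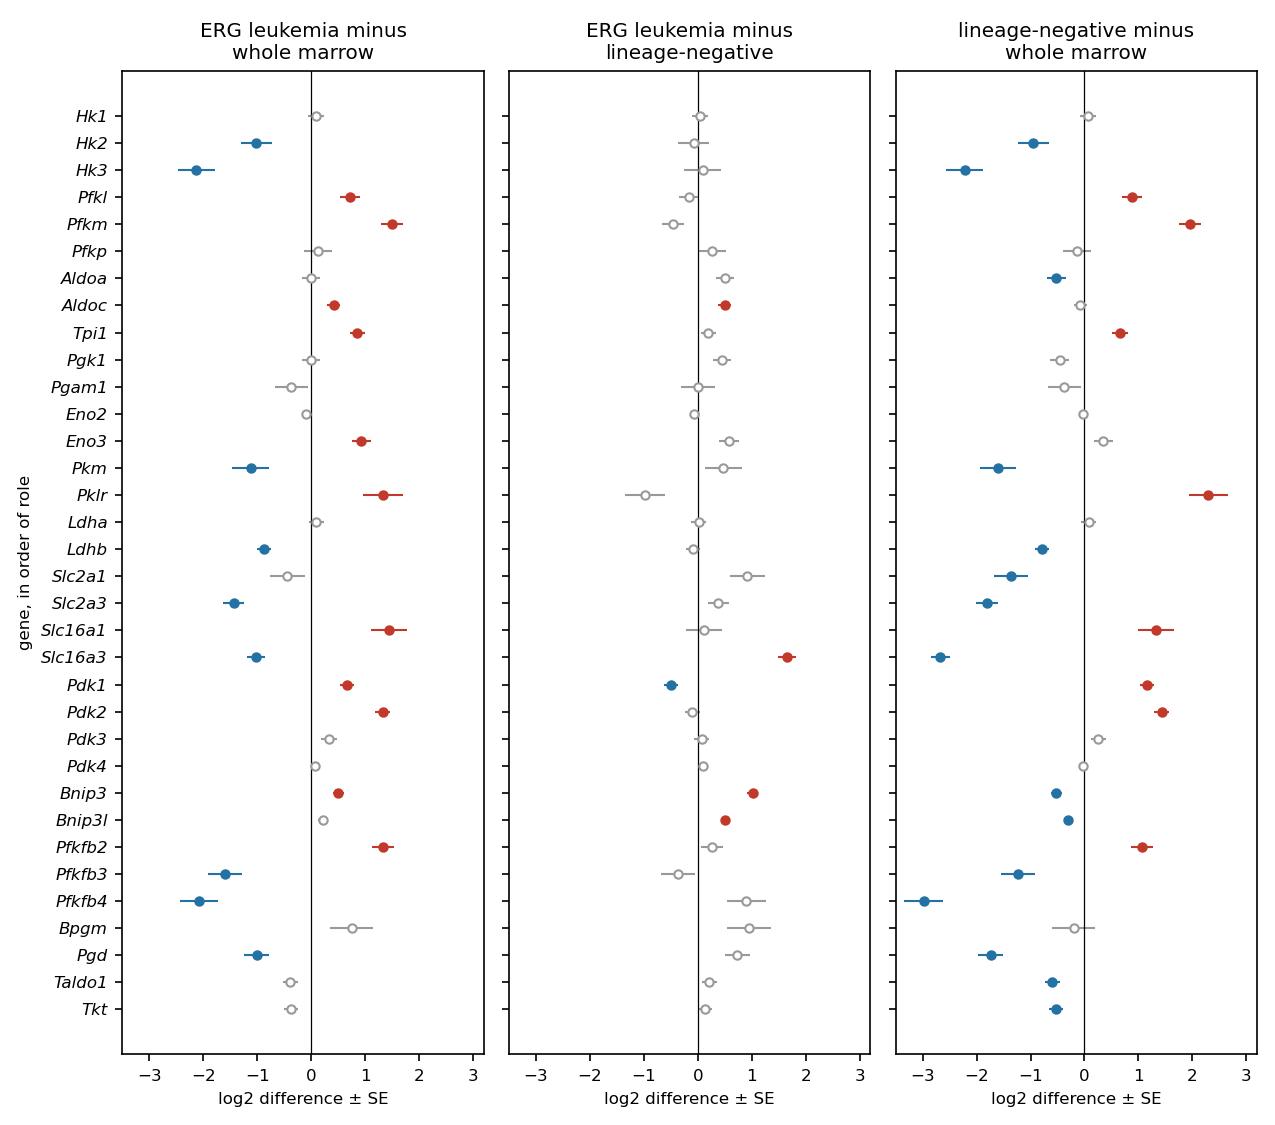
Log2 difference ± standard error of each measured member in the 3 comparisons (x axes), with genes down the page in order of role. Filled points passed the threshold, red for higher and blue for lower in the group named first, and open grey points did not. Most points of the middle panel, leukemia minus lineage-negative marrow, are open, with 5 of 34 filled.

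The hexokinases phosphorylate glucose on entry into the cell. Hk3, an isozyme known from myeloid cells, stood at intensities of 145.9, 61.6 and 121.5 in leukemias 1, 2 and 3, at 122.4, 67.2 and 109.9 in lineage-negative pools, and at 489.8, 529.9 and 354.1 in whole marrow. Every leukemia and every pool lay below every whole marrow array, and leukemias and pools overlapped. Hk3 was 4.38-fold lower in leukemia than in whole marrow (log2 difference -2.13 ± 0.34 SE, limma adjusted p = 0.00309) and differed from lineage-negative marrow by 0.09 ± 0.34 (adjusted p = 0.929). In lineage-negative against whole marrow it was 4.67-fold lower (-2.22 ± 0.34). Hk2, the isozyme often raised in tumours, was read at 85.9, 48.2 and 101.3 in leukemias, 102.8, 67.9 and 70.4 in pools and 159.5, 186.8 and 118.3 in whole marrow. It was lower than in whole marrow in both other groups, by -1.02 ± 0.29 in leukemia (adjusted p = 0.0346) and -0.95 ± 0.29 in pools (adjusted p = 0.0347). Hk2 in leukemia against whole marrow no longer passed when whole marrow array 1 (-0.99) or 2 (-0.88), leukemia 1 (-1.12) or 2 (-0.71) or pool 3 (-1.02) was left out, with array weights (-0.71) or in a fit of these 2 groups alone (-1.02), and Hk2 in pools against whole marrow did not without whole marrow array 1 (-0.91) or 2 (-0.80) or pool 2 (-0.84) or 3 (-0.87).

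Hk1, the hexokinase of red cells and many other tissues, gave different answers from its probe sets. The brighter one, which stands for the gene by the rule, stood at 585.6, 629.0 and 682.2 in leukemias, 726.6, 528.0 and 606.1 in pools and 707.8, 511.4 and 570.7 in whole marrow. All 3 groups overlapped there, and leukemia differed from whole marrow by 0.09 ± 0.15 (limma adjusted p = 0.729). Its annotation lists 1 accession, which 18 probe sets of the array list and 16 of those are also annotated with Rpl17, a ribosomal protein gene. The other Hk1 probe set, the only one annotated with RefSeq transcripts of Hk1, stood at 467.6, 559.7 and 430.2 in leukemias, 340.1, 458.8 and 396.1 in pools and 231.4, 237.4 and 221.9 in whole marrow. By this probe set, a choice made after seeing the data, every leukemia and every pool exceeded every whole marrow array. Hk1 was then 2.10-fold higher in leukemia than in whole marrow (1.07 ± 0.13, adjusted p = 0.00114) and 1.72-fold higher in pools (0.78 ± 0.13, adjusted p = 0.00171), while leukemia and pools differed by 0.29 ± 0.13 (adjusted p = 0.23). The other members with several probe sets had the same direction by each of them wherever they were called.

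Phosphofructokinase commits sugar to glycolysis, and its subunits come from Pfkm (muscle type), Pfkl (liver type) and Pfkp (platelet type). Pfkm was read at 201.7, 219.9 and 155.2 in leukemias, 215.5, 344.4 and 239.1 in pools and 68.2, 54.7 and 81.0 in whole marrow. Whole marrow lay lowest on all 3 of its arrays, and leukemias and pools overlapped. Pfkm rose 2.83-fold in leukemia against whole marrow (1.5 ± 0.21, limma adjusted p = 0.00195) and 3.89-fold in pools (1.96 ± 0.21). Pfkl was also higher in leukemia than in whole marrow (0.72 ± 0.18, adjusted p = 0.0189), a call that needed whole marrow array 3 (0.57 without it), leukemia 1 (0.62) and leukemia 3 (0.67), and higher in pools than in whole marrow (0.88 ± 0.18). Pfkp passed in no comparison, with intensities of 103.5 to 172.9 in leukemias, 82.9 to 155.1 in pools and 103.2 to 142.9 in whole marrow.

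The level of fructose 2,6-bisphosphate, which activates phosphofructokinase, is set by the bifunctional enzymes of the Pfkfb genes. Pfkfb4 had 107.5, 43.6 and 92.3 in leukemias, 50.3, 32.2 and 40.7 in pools and 376.1, 396.2 and 219.4 in whole marrow, and its whole marrow arrays all stood above the rest. It was 4.23-fold lower in leukemia than in whole marrow (-2.08 ± 0.36, limma adjusted p = 0.00423), and with 7.91-fold in pools against whole marrow (-2.98 ± 0.36) it had the largest difference of any member in that comparison. Between leukemia and pools the difference of 0.90 ± 0.36 did not pass (adjusted p = 0.175), though it did without leukemia 2 (1.30). Pfkfb3, the family member with the highest kinase over phosphatase activity, had 69.4, 33.0 and 57.8 in leukemias, 88.5, 48.6 and 66.4 in pools and 193.8, 144.4 and 130.6 in whole marrow. It was 3.02-fold lower in leukemia than in whole marrow (-1.60 ± 0.31, adjusted p = 0.00664) and 2.34-fold lower in pools (-1.23 ± 0.31, adjusted p = 0.0134), the second being lost without whole marrow array 1 (-1.06) or pool 2 (-1.01). Pfkfb2, known as the heart-type enzyme, ran the other way, with 126.5, 151.3 and 89.6 in leukemias, 101.2, 110.1 and 90.2 in pools and 54.3, 37.9 and 52.6 in whole marrow. It was 2.51-fold higher in leukemia than in whole marrow (1.33 ± 0.21, adjusted p = 0.00264) and 2.10-fold higher in pools (1.07 ± 0.21).

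Aldolase, triosephosphate isomerase and the enzymes down to enolase carry the split sugar toward pyruvate. Tpi1, whose enzyme interconverts the 3-carbon sugars, had 667.6, 497.2 and 582.3 in leukemias, 493.5, 543.1 and 486.0 in pools and 326.2, 373.1 and 273.5 in whole marrow, with whole marrow lowest throughout. Tpi1 was 1.80-fold higher in leukemia than in whole marrow (0.85 ± 0.14, limma adjusted p = 0.00337) and 1.58-fold higher in pools (0.66 ± 0.14), and the second call was lost after cyclic loess (0.40). Eno3, the muscle-type enolase gene, had 134.5, 96.4 and 157.2 in leukemias, 82.6, 91.2 and 81.5 in pools and 67.7, 56.0 and 77.5 in whole marrow, so that the 3 groups did not overlap. It was 1.91-fold higher in leukemia than in whole marrow (0.93 ± 0.18, adjusted p = 0.00714), and its difference from pools, 0.58 ± 0.18, did not pass (adjusted p = 0.0923) except without leukemia 2 (0.77) and in 3 other settings. Aldoa, the main aldolase of blood cells and muscle, differed from whole marrow by -0.01 ± 0.17 in leukemia (adjusted p = 0.979) and was lower in pools than in whole marrow (-0.52 ± 0.17, adjusted p = 0.0396), a call lost without any 1 pool (-0.55 to -0.49), whole marrow array 1 (-0.51) or 2 (-0.35) or leukemia 3 (-0.52). Between leukemia and pools Aldoa passed without whole marrow array 3 (0.51), against 0.51 ± 0.17 and adjusted p = 0.102 with all arrays. Pgk1, which makes the first ATP of the pathway, differed from whole marrow by -0.01 ± 0.17 in leukemia (adjusted p = 0.989) and by -0.46 ± 0.17 in pools (adjusted p = 0.0671), where it passed without whole marrow array 3 (-0.60) or leukemia 2 (-0.46) and in 4 other settings. Every leukemia exceeded every pool for Aldoa and for Pgk1. Pgam1 passed in no comparison and spread widely, from 504.2 to 1050.4 in leukemias, 679.1 to 921.5 in pools and 754.9 to 1476.2 in whole marrow. Aldoc, Eno2 and Pdk4 lay below 33.4, the median intensity of all probe sets, in all 3 groups. Aldoc passed at this low level, higher in leukemia by 0.42 ± 0.12 against whole marrow and 0.50 ± 0.12 against pools, and both calls were lost without leukemia 1 (0.32 and 0.40) or leukemia 2 (0.43 and 0.51) and in a fit of the 2 groups alone (0.42 and 0.50). The call against whole marrow was also lost without whole marrow array 1 (0.37) or 3 (0.40) and with 75th percentile centring (0.34), and the call against pools without pool 1 (0.56), 2 (0.49) or 3 (0.46).

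Pyruvate kinase closes glycolysis, and its genes changed in opposite directions. Pkm, whose M2 form is typical of white cells and tumours, had 374.8, 178.5 and 413.5 in leukemias, 286.6, 157.5 and 229.1 in pools and 736.8, 767.3 and 505.4 in whole marrow. Pklr, which encodes the red cell and liver enzyme, had 220.4, 555.2 and 421.4 in leukemias, 614.7, 937.0 and 681.6 in pools and 205.8, 96.4 and 164.4 in whole marrow. Whole marrow stood above all other arrays for Pkm and below them for Pklr, and leukemia 2 had the lowest Pkm and the highest Pklr of the leukemias. Pkm was 2.18-fold lower in leukemia than in whole marrow (-1.12 ± 0.34, limma adjusted p = 0.0437) and Pklr 2.51-fold higher (1.33 ± 0.37, adjusted p = 0.032). In pools against whole marrow Pkm was 3.02-fold lower (-1.60 ± 0.34) and Pklr 4.94-fold higher (2.30 ± 0.37, adjusted p = 0.00156). Both leukemia calls depended on the setting: Pkm lost its call without whole marrow array 1 (-1.04) or 2 (-1.01), leukemia 1 (-1.28) or 2 (-0.74) or pool 3 (-1.12), with array weights (-0.81) and in a fit of the 2 groups alone (-1.12), and Pklr without whole marrow array 2 (1.02) or 3 (1.40), leukemia 2 (1.04) or 3 (1.24) or pool 3 (1.33), after cyclic loess (1.14) and in a fit of the 2 groups alone (1.33). The M1 and M2 splice forms of Pkm are not told apart by a value for the whole gene. The erythroid marker sum was 5174 in leukemia 1, 9345 in leukemia 2 and 8370 in leukemia 3, and its part in the Pklr values was not tested.

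The regions around the transcription starts of these kinase genes are shown because the genes moved oppositely. They are RefSeq sequences of GRCm38.p6, 250 bases before to 50 bases after the start in the table, from the strand of the gene. Capitals mark matches, on either strand, to the hypoxia response element cores ACGTG and GCGTG, the E-box CACGTG, which contains ACGTG, and the GATA motifs AGATAA and TGATAA. Pklr lies at chr3:89135892-89136191 on the plus strand and Pkm at chr9:59656326-59656625 on the plus strand.
Pklr: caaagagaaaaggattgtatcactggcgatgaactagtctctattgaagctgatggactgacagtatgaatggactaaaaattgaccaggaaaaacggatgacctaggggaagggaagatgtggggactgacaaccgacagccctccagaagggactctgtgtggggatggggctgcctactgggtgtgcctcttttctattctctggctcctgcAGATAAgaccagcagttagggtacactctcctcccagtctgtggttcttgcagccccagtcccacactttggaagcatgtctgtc
Pkm: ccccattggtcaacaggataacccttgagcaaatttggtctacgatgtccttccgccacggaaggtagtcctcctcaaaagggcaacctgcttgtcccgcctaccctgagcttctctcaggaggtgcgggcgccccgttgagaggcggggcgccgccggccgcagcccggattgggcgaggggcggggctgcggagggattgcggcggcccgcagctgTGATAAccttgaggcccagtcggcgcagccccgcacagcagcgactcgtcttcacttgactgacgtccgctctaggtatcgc
Each of these windows held a single match, AGATAA starting 35 bases before the start of Pklr and TGATAA starting 32 bases before that of Pkm. Over the 27025 promoters of this length in the table, 19% held a GATA motif, 43.8% a hypoxia response element core and 7.24% the E-box. Of 34 measured members 32 had a promoter in the table, and 8, 25 and 6 of these held the 3 kinds of motif in that order. A match is only a run of letters and shows no binding.

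Lactate dehydrogenase was nearly level for its main gene. Ldha, which favours lactate, had 1372.9, 1109.0 and 1045.0 in leukemias, 1163.0, 1183.4 and 1117.9 in pools and 1150.3, 1250.8 and 911.7 in whole marrow, and the groups overlapped. Its differences were 0.09 ± 0.14 for leukemia against whole marrow (limma adjusted p = 0.706) and 0.02 ± 0.14 against pools (adjusted p = 0.969). Ldhb, which favours pyruvate, was dim, with 36.1, 28.8 and 35.2 in leukemias, 40.8, 34.0 and 32.0 in pools and 64.3, 63.3 and 55.0 in whole marrow. Ldhb was 1.83-fold lower in leukemia than in whole marrow (-0.87 ± 0.13, adjusted p = 0.00201), read as a lower bound since the leukemia mean of 33.2 lies under the median intensity, and 1.72-fold lower in pools (-0.78 ± 0.13).

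Carriers bring glucose into the cell and pass lactate out of it. Slc16a3, which encodes the lactate exporter MCT4, had 213.7, 161.1 and 176.4 in leukemias, 65.4, 51.2 and 58.4 in pools and 367.9, 460.4 and 297.1 in whole marrow. The 3 groups did not overlap, and leukemia stood between the others. Slc16a3 was 3.14-fold higher in leukemia than in lineage-negative marrow (1.65 ± 0.17, limma adjusted p = 0.00158), 2.02-fold lower than in whole marrow (-1.02 ± 0.17, adjusted p = 0.00407), and 6.36-fold lower in pools than in whole marrow (-2.67 ± 0.17, adjusted p = 5.17e-05). All 3 of its calls were kept in each of the 17 or 18 alternatives run. The mature neutrophil markers took the same order of groups, and within the leukemias their sums were 19002, 12706 and 17554, so that leukemia 2 was lowest in both, and the part of neutrophils in the Slc16a3 values was not tested. Slc16a1, the gene of MCT1, which carries lactate and pyruvate in either direction, had 488.5, 925.5 and 611.4 in leukemias, 477.0, 788.6 and 586.0 in pools and 220.4, 169.1 and 373.6 in whole marrow. It was 2.71-fold higher in leukemia than in whole marrow (1.44 ± 0.33, adjusted p = 0.0141), which was lost without whole marrow array 1 (1.37), and 2.51-fold higher in pools (1.33 ± 0.33, adjusted p = 0.0133), which was lost without pool 2 (1.14).

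The promoters of the lactate carriers are given for the same reason as those of the pyruvate kinases, with the same marks. Slc16a3 lies at chr11:120948817-120949116 and Slc16a1 at chr3:104638414-104638713, both on the plus strand.
Slc16a3: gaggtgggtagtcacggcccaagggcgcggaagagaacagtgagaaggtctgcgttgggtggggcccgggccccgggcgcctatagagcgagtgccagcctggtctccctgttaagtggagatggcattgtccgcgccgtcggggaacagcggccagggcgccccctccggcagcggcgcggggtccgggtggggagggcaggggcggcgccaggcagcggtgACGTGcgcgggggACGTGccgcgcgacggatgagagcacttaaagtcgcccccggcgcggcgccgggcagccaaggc
Slc16a1: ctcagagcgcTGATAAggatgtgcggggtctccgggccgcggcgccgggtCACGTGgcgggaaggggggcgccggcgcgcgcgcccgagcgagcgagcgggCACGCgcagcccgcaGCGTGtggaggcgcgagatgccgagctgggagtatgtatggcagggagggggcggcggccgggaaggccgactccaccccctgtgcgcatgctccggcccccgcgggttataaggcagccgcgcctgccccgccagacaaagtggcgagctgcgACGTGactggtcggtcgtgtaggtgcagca
The Slc16a3 window held ACGTG 2 times, starting 27 and 14 bases before the start, and no E-box or GATA motif. The Slc16a1 window held ACGTG or GCGTG 5 times on the 2 strands, with 1 E-box that accounts for a pair of these, and 1 GATA motif.

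Of the glucose carriers, Slc2a3 (GLUT3), a high-affinity carrier of white cells, had 386.6, 436.3 and 408.9 in leukemias, 375.5, 243.0 and 344.2 in pools and 1346.5, 1208.5 and 839.7 in whole marrow. Leukemias and pools lay far under whole marrow on every array. Slc2a3 was 2.71-fold lower in leukemia (-1.44 ± 0.20, limma adjusted p = 0.00192) and 3.52-fold lower in pools (-1.81 ± 0.20) than in whole marrow. Slc2a1 (GLUT1), which is used by dividing cells and erythroid precursors, varied between leukemias, at 220.9, 140.6 and 338.1, with 158.0, 85.1 and 115.0 in pools and 272.8, 358.8 and 268.3 in whole marrow. It was lower in pools than in whole marrow (-1.36 ± 0.32, adjusted p = 0.0105), while leukemia differed by -0.44 ± 0.32 from whole marrow (adjusted p = 0.398) and by 0.92 ± 0.32 from pools (adjusted p = 0.126), the last passing without leukemia 2 (1.24).

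Pyruvate dehydrogenase kinases switch off the entry of pyruvate into the citric acid cycle. Pdk1, a known hypoxia target, had 158.9, 122.8 and 160.6 in leukemias, 209.9, 222.2 and 189.6 in pools and 103.1, 88.0 and 86.8 in whole marrow, with leukemias between the others and no overlap. It was 1.59-fold higher in leukemia than in whole marrow (0.66 ± 0.13, limma adjusted p = 0.00614) and 2.24-fold higher in pools (1.16 ± 0.13). The difference from pools, -0.50 ± 0.13, just passed (adjusted p = 0.0443) and was lost when any 1 of the 9 arrays was left out (-0.57 to -0.37), after cyclic loess (-0.39), and at -0.50 in a fit of the 2 groups alone or with trended robust variance. Pdk2 had 114.1, 129.9 and 93.7 in leukemias, 115.0, 122.9 and 120.9 in pools and 46.7, 37.7 and 50 in whole marrow, which lay lowest on every array. Pdk2 was 2.51-fold higher in leukemia (1.33 ± 0.14, adjusted p = 0.000755) and 2.69-fold higher in pools (1.43 ± 0.14) than in whole marrow, and its call stayed in each alternative run. Pdk3 passed in no comparison, at 405.9 to 507.1 in leukemias, 400.8 to 471.0 in pools and 307.0 to 417.1 in whole marrow.

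Bnip3 and Bnip3l, hypoxia-induced receptors that mark mitochondria for removal, stood above every wild type array in each leukemia, as did Aldoc and Eno3. Bnip3 had 130.8, 127.1 and 140.4 in leukemias, 73.3, 60.4 and 63.5 in pools and 100.1, 98.1 and 83.6 in whole marrow. Each leukemia exceeded each wild type array, and whole marrow exceeded the pools. Bnip3 was 1.42-fold higher in leukemia than in whole marrow (0.50 ± 0.10, limma adjusted p = 0.00847), 2.03-fold higher than in pools (1.02 ± 0.10, adjusted p = 0.00127), and 1.43-fold lower in pools than in whole marrow (-0.52 ± 0.10). Bnip3l, which reticulocytes need to clear mitochondria, had 3115.9, 3190.7 and 2720.6 in leukemias, 1999.4, 2150.8 and 2175.6 in pools and 2650.8, 2554.7 and 2597.4 in whole marrow, again without overlap. It was 1.42-fold higher in leukemia than in pools (0.51 ± 0.08, adjusted p = 0.00781), and against whole marrow its 0.21 ± 0.08 did not pass (adjusted p = 0.0998) except without leukemia 3 (0.28) or with the mean of its probe sets (0.28). Its fall in pools against whole marrow (-0.30 ± 0.08, adjusted p = 0.0173) was lost without whole marrow array 1 (-0.29) or pool 1 (-0.27). Each gene had a second probe set, and those gave 0.33 and 0.35 in leukemia against whole marrow and 0.65 and 0.62 against pools.

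The Bnip3 promoter is shown because the gene was higher in leukemia than in both wild type groups. It lies at chr7:138909457-138909756 on the minus strand and is printed in the direction of the gene, with the same marks.
Bnip3: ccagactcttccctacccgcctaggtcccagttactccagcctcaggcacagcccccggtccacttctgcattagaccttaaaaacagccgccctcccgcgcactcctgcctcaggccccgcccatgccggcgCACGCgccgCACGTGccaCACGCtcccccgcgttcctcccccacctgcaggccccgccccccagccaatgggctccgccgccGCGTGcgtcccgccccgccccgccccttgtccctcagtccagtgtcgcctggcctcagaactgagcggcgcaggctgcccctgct
It held 1 E-box, which reads as ACGTG on each strand, and GCGTG 3 times over the 2 strands.

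Bpgm, which makes the 2,3-bisphosphoglycerate of red cells, parted the leukemias. It had 50.2, 134.8 and 127.8 in leukemias, 47.6, 50.8 and 49.5 in pools and 67.2, 34.9 and 77.6 in whole marrow, so that leukemia 1 lay among the wild type arrays and the other leukemias above them. The difference of 0.75 ± 0.40 from whole marrow (limma adjusted p = 0.232) and that of 0.95 ± 0.40 from pools (adjusted p = 0.203) did not pass, and both passed without leukemia 1 (1.21 and 1.41). Its SD of 0.801 on the log2 scale was the largest of any member among the leukemias, whose median SD over members was 0.241, against 0.127 over all genes.

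Of the pentose phosphate pathway, the measured members Pgd, Taldo1 and Tkt had their highest group means in whole marrow. Pgd, the second NADPH-forming step, had 809.4, 529.0 and 927.8 in leukemias, 503.6, 407.8 and 424.1 in pools and 1539.5, 1806.8 and 1160.3 in whole marrow. The 3 groups did not overlap, with leukemia in the middle. Pgd was 2.01-fold lower in leukemia than in whole marrow (-1.01 ± 0.23, limma adjusted p = 0.0126) and 3.33-fold lower in pools (-1.74 ± 0.23, adjusted p = 0.000522). Its difference of 0.73 ± 0.23 between leukemia and pools (adjusted p = 0.0875) passed without leukemia 2 (0.97). Taldo1 and Tkt, of the branch that returns sugars to glycolysis, were lower in pools than in whole marrow (-0.60 ± 0.14 for Taldo1 and -0.52 ± 0.13 for Tkt), and Tkt lost its call without whole marrow array 1 (-0.45) or 2 (-0.42) or pool 1 (-0.47). In leukemia against whole marrow they stood at -0.39 ± 0.14 (adjusted p = 0.075) and -0.38 ± 0.13 (adjusted p = 0.0748), and both passed without whole marrow array 3 (-0.51 and -0.54) or after cyclic loess (-0.59 and -0.56).

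**Figure D3:**
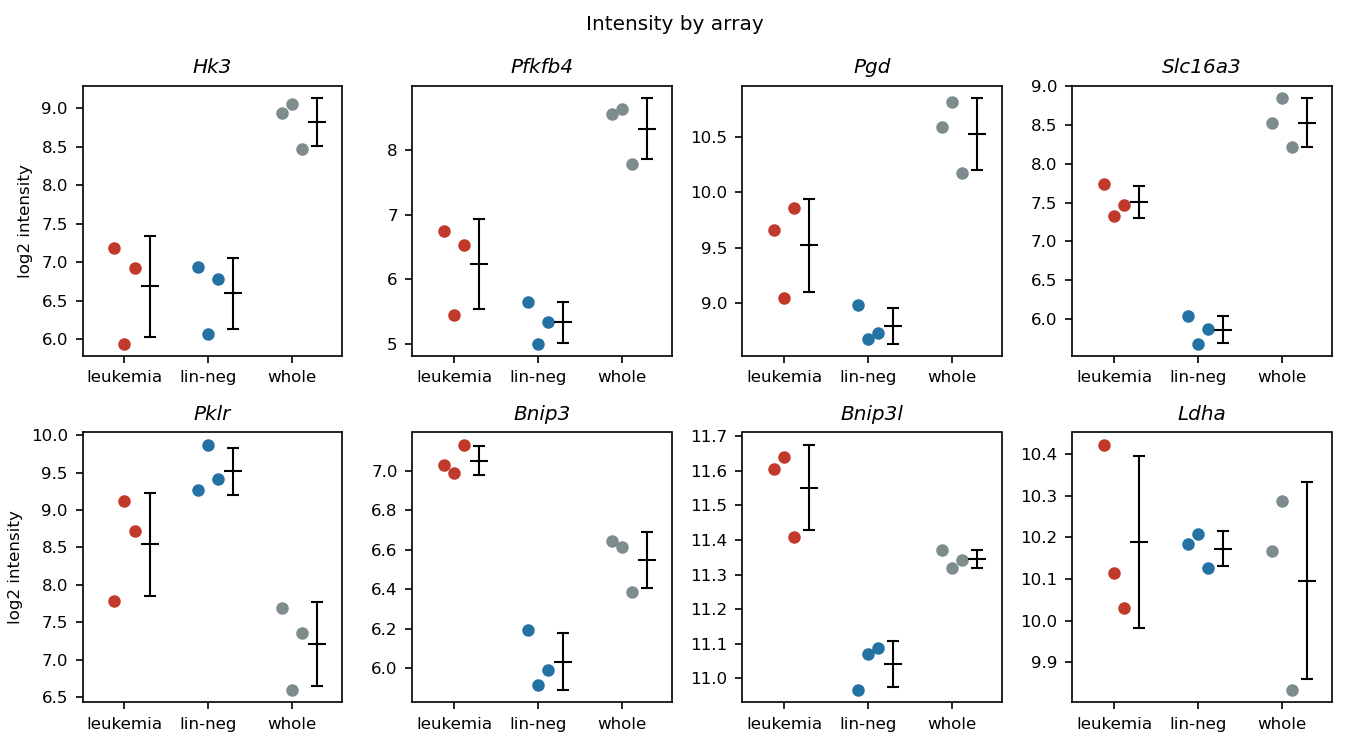
Log2 intensity (y axes) of 8 members on each array, with points for arrays and bars for the mean ± SD of 3 arrays in ERG leukemia, lineage-negative and whole marrow from left to right. Slc16a3, Bnip3 and Pgd show 3 groups without overlap, Hk3 and Pfkfb4 stand highest in whole marrow, and Ldha overlaps throughout.

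The group means took 5 of the 6 possible orders. In 12 members whole marrow was highest and lineage-negative marrow lowest, with leukemia between them, namely Hk3, Aldoa, Pgk1, Pgam1, Pkm, Slc2a1, Slc2a3, Slc16a3, Pfkfb4, Pgd, Taldo1 and Tkt. In 5 members, Pfkl, Pfkm, Pklr, Pdk1 and Pdk2, the order was turned round, with lineage-negative marrow highest and leukemia between. Leukemia was highest in 13 members, of which 6 had lineage-negative marrow lowest (Pfkp, Aldoc, Pdk4, Bnip3, Bnip3l and Bpgm), and lowest in 4 (Hk2, Eno2, Ldhb and Pfkfb3). These orders are of means, and neighbours in an order were called different only where their limma test passed the threshold. Shares of the orders over all genes were not computed, so the counts are not read as particular to the set.

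Isozyme balance was taken as the log2 intensity of one gene minus that of its paralog on the same array, and its shift between groups was tested with an exact permutation test of the 3-group F statistic over all 1680 assignments of the arrays. Of 17 pairs tested, 11 passed after Benjamini-Hochberg adjustment over the pairs, where the smallest p the design allows is 0.00357. Pairs of genes outside the set were not tested, so this count has no background share beside it. Over all single genes, the arrays of pools and whole marrow did not overlap in 50%, and 34.7% were called by limma. The count is therefore not read as particular to these isozymes. Each p is for any difference among the 3 groups and not for a difference between 2 of them. Several pairs share a gene, so the pairs are not independent of each other. A balance can also shift through either gene alone, and Pfkp, Ldha and Pdk3 passed in no limma comparison of their own. Probe sets differ in brightness, so only shifts are read and not which gene is the more abundant. With RefSeq-annotated probe sets 12 pairs passed, and leaving out 1 array gave 4 to 14, the count being 7 without whole marrow array 1 or 2, 6 without pool 1 and 4 without pool 2.

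The balance of the lactate carriers separated all 3 groups. Slc16a3 minus Slc16a1 was -1.19, -2.52 and -1.79 in leukemias, -2.87, -3.95 and -3.33 in pools and 0.74, 1.45 and -0.33 in whole marrow. No arrays of different groups overlapped (exact permutation p = 0.00357, adjusted p = 0.0202), and leukemia differed from whole marrow by -2.45 ± 0.64 and from pools by 1.54 ± 0.50. For the pyruvate kinases, Pklr minus Pkm was -0.77, 1.64 and 0.03 in leukemias, 1.10, 2.57 and 1.57 in pools and -1.84, -2.99 and -1.62 in whole marrow (exact permutation adjusted p = 0.0304). The balance leant further toward Pklr on every leukemia and pool array than on any whole marrow array, by 2.45 ± 0.82 in leukemia and 3.90 ± 0.61 in pools, and leukemias and pools overlapped.

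Among the regulators of phosphofructokinase, Pfkfb2 minus Pfkfb3 was 0.87, 2.20 and 0.63 in leukemias, 0.19, 1.18 and 0.44 in pools and -1.83, -1.93 and -1.31 in whole marrow (exact permutation adjusted p = 0.0304). Pfkfb4 minus Pfkfb3 parted leukemia from pools, at 0.63, 0.40 and 0.68 in leukemias, -0.81, -0.59 and -0.71 in pools and 0.96, 1.46 and 0.75 in whole marrow. That shift was 1.27 ± 0.11 for leukemia against pools and -0.48 ± 0.23 against whole marrow, with exact permutation adjusted p = 0.0202 over the 3 groups. Hk3 minus Hk2 and Ldhb minus Ldha each shifted over the 3 groups (exact permutation adjusted p = 0.0304 for each). Against whole marrow, Hk3 minus Hk2 was at -1.11 ± 0.16 in leukemia and -1.28 ± 0.19 in pools. Ldhb minus Ldha was at -0.96 ± 0.14 in leukemia and -0.86 ± 0.12 in pools against whole marrow. The balances of Pfkp with Pfkl and with Pfkm also shifted over the 3 groups (exact permutation adjusted p = 0.0304 for each). Pfkp minus Pfkl was at -0.59 ± 0.10 in leukemia and -1.01 ± 0.30 in pools against whole marrow. Pfkp minus Pfkm was at -1.37 ± 0.41 in leukemia and -2.09 ± 0.53 in pools against whole marrow.

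Relative to Pdk1, Pdk4 shifted between all 3 groups (exact permutation adjusted p = 0.0202), but Pdk4 was below the median intensity throughout and passed in no comparison of its own. Pdk3 minus Pdk1 was 1.67, 2.01 and 1.34 in leukemias, 1.17, 1.06 and 1.08 in pools and 1.96, 2.24 and 1.82 in whole marrow (exact permutation adjusted p = 0.0304). Leukemia lay above the pools on each array by 0.57 ± 0.20 and overlapped with whole marrow, from which it differed by -0.33 ± 0.23. Hk3 minus Hk1 just passed (adjusted p = 0.0497) and Hk2 minus Hk1 just missed (adjusted p = 0.0506), and with the RefSeq-annotated Hk1 probe set both passed (exact permutation adjusted p = 0.0354 and 0.0331), at -3.20 ± 0.50 and -2.09 ± 0.47 in leukemia against whole marrow. The pairs Pfkm and Pfkl, Aldoc and Aldoa, Slc2a3 and Slc2a1, Pdk2 and Pdk1, and Bnip3 and Bnip3l did not pass, with exact permutation adjusted p between 0.0514 and 0.0821.

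**Figure D4:**
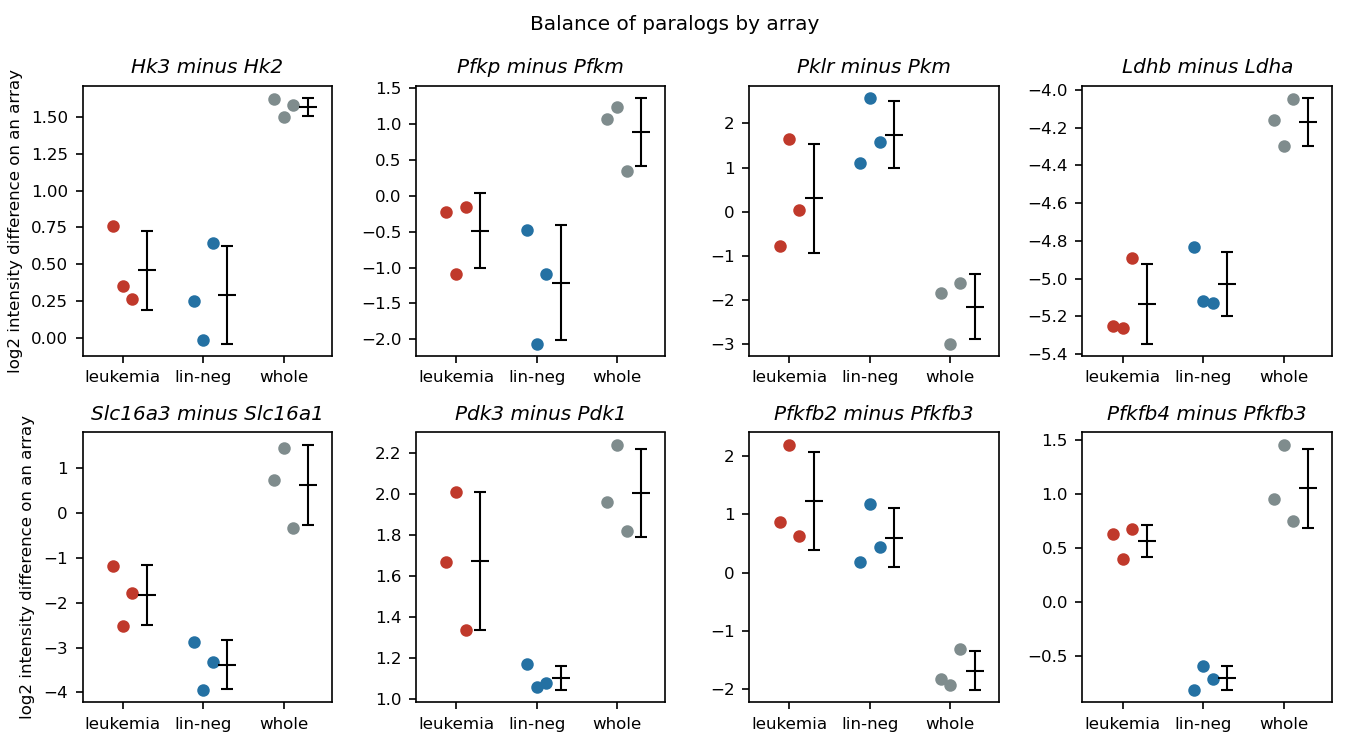
Log2 intensity of one gene minus that of its paralog on the same array (y axes) for 8 pairs, with points for arrays and bars for the mean ± SD of 3 arrays in ERG leukemia, lineage-negative and whole marrow from left to right. Whole marrow stands apart from leukemia in each pair but Pdk3 minus Pdk1, and leukemia stands apart from pools for Slc16a3 minus Slc16a1, Pdk3 minus Pdk1 and Pfkfb4 minus Pfkfb3.

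For the other genes of the pathway, the shares called are set against the same backgrounds of 24.5% of all genes in leukemia against whole marrow, 8.69% in leukemia against pools and 34.7% in pools against whole marrow. Of 14 other glycolysis genes, 3 were higher and 3 lower in leukemia against whole marrow, 1 was higher against pools, and 3 were higher and 3 lower in pools against whole marrow, which is 42.9%, 7.14% and 42.9% called. Adpgk, a glucokinase that spends ADP, was -1.74 ± 0.22 against whole marrow (limma adjusted p = 0.00122) and 1.16 ± 0.22 against pools (adjusted p = 0.0147), the same order of groups as Slc16a3. Pgm2l1, related to the phosphoglucomutases, was higher in leukemia than in whole marrow by 1.81 ± 0.28 (adjusted p = 0.0025), and Minpp1, a phosphatase that also acts on inositol phosphates, by 1.78 ± 0.19 (adjusted p = 0.000754). Of 10 other pentose phosphate genes 2 were higher and 2 lower in leukemia against whole marrow, led by Prps1, which makes the ribose donor of nucleotide synthesis (1.78 ± 0.18, adjusted p = 0.000718), and Shpk, the kinase of sedoheptulose (at least 2.04-fold, since its whole marrow mean was below the median intensity). Against pools 0 of these 10 passed by limma and 2 had an unadjusted p below the threshold, while 4 were higher and 2 lower in pools than in whole marrow, so that 40% and 60% were called against whole marrow in leukemia and in pools.

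Of 11 other glucose and lactate transport genes 2 were higher and 1 lower in leukemia against whole marrow, 27.3% and thus near the background. Slc2a6, a glucose carrier gene of white cells, was lower (-1.31 ± 0.32, limma adjusted p = 0.0172), and Bsg, the chaperone that brings MCT1 and MCT4 to the membrane, was higher (0.47 ± 0.12, adjusted p = 0.0219). Of 9 genes for pyruvate entry and its dehydrogenase, 3 passed in leukemia against whole marrow, all higher, 2 passed against pools, both lower, and 5 passed in pools against whole marrow, all higher, which is 33.3%, 22.2% and 55.6% called. Pcx, the carboxylase that makes oxaloacetate from pyruvate, was higher in leukemia than in whole marrow at least 2.22-fold (log2 difference 1.15 ± 0.30, adjusted p = 0.0245), with a whole marrow mean below the median intensity. Pdhx, which binds the dehydrogenase complex together, was 0.55 ± 0.09 higher in leukemia than in whole marrow (adjusted p = 0.00407). Of 13 hypoxia regulators and targets 2 were higher and 2 lower in leukemia against whole marrow, and 1, Ankrd37, was higher against pools, at least 1.54-fold since its mean in pools was below the median intensity. These shares, 30.8% and 7.69%, lie near the backgrounds. Hif1a, the oxygen-sensitive factor itself, was lower in leukemia than in whole marrow (-0.77 ± 0.24, adjusted p = 0.0482), and Higd1a, a hypoxia-induced mitochondrial protein gene, was higher (0.56 ± 0.14, adjusted p = 0.0203).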

How the data were processed

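Each deposited value is an array intensity, linear in scale, which the authors obtained with RMA in Partek per the submitters' processing notes. Software versions and the genome build were not given in the sources used here. The values were log2-transformed with no further normalization. Of 28853 probe sets, 21789 had 1 gene symbol in the platform's annotation (updated through Entrez identifiers), 1621 had several and 5443 were not named. The 19938 genes with 1 symbol were fitted together, with 3 group means over 9 arrays, by limma 3.58.1 in R 4.3.3 (eBayes without trend, 6 residual and 2.62 prior degrees of freedom, two-sided). No filter on dim genes was set. Of the 34 measured members, 31 had a group mean above the median intensity of 33.4, as did 55.2% of all genes. A fold whose lower mean lies under it was read as a lower bound, which is a convention, since no detection limit was measured. The number of arrays limits precision. Other values and exact permutation tests were computed in Python 3.11.15, and figures were drawn with matplotlib 3.10.9. The scripts were tested on simulated data.

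Groups follow the titles and source names, and leukemias were numbered in accession order. Replicate numbers are shared by the wild type groups, which come from different mice, so the arrays were not paired. Deviations of same-numbered arrays correlated at 0.312, -0.009 and -0.009, and those of differently numbered arrays at -0.203 to 0.147. The value of 0.312, for whole marrow array 1 and pool 1, was the highest of all. Alternatives were 75th percentile centring, cyclic loess, the mean of a gene's probe sets, bright genes alone, only the 2 groups compared, trended robust variance, array weights, a replicate block and leaving out each array. The members, the other gene lists, the isozyme pairs and the tests were chosen with earlier results of these data known. Every measured member could be named, and of each other pathway list up to 2 genes per comparison with the largest change past the threshold.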

Additional observations from a re-analysis of the deposited data

How the results depend on the processing

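No member that passed with the deposited values changed sign in the alternatives run. In leukemia against whole marrow, 8 to 13 members were higher and 7 to 11 lower over all alternatives, and in pools against whole marrow 7 to 9 were higher and 10 to 16 lower, the lowest count without whole marrow array 1. Few calls separated leukemia from pools, and these moved most: 11 members were higher with array weights, 7 without leukemia 2 and 3 without any 1 pool, and the single lower call, Pdk1, did not pass, leaving 0, in a fit of only the 2 groups compared, after cyclic loess, with trended robust variance and without any 1 array. Leaving out 1 array gave 3 to 7 members higher and 0 to 0 lower in that comparison, and 4 to 14 isozyme pairs past the threshold. With the RefSeq-annotated probe sets, an alternative added after seeing the data, 12 members were higher in leukemia against whole marrow. 75th percentile centring moved the median of all genes from -0.035 to -0.159 in pools against whole marrow and from -0.022 to -0.105 in leukemia against whole marrow. With the shared replicate number as a replicate block, 8 members were higher and 14 lower in pools against whole marrow, Aldoa losing its call (-0.52). The cause of these changes was not tested.

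The sign of some differences near 0 depended on the setting, and none of these passed with the deposited values or under the setting named. In leukemia against whole marrow the sign turned after 75th percentile centring for Pdk4 (-0.02), after cyclic loess for Hk1 (-0.09), Pfkp (-0.02) and Ldha (-0.07) and with array weights for Aldoa (0.15), Pgk1 (0.12) and Pgam1 (0.00). With any 1 array left out, Hk1 (-0.01 to 0.22), Aldoa (-0.18 to 0.16), Pgk1 (-0.15 to 0.15), Ldha (-0.04 to 0.19) and Pfkp (-0.04 to 0.33) ranged across 0 there. In leukemia against pools the sign turned after cyclic loess for Hk2 (0.03) and Pdk2 (0.00) and with array weights for Hk2 (0.20), Eno2 (0.03), Ldha (-0.03) and Ldhb (0.01). With any 1 array left out, Hk2 (-0.29 to 0.24), Ldhb (-0.16 to 0.01), Slc16a1 (-0.14 to 0.32), Hk1 (-0.07 to 0.16), Hk3 (-0.17 to 0.46), Pgam1 (-0.21 to 0.32), Ldha (-0.10 to 0.10), Pdk3 (0.00 to 0.18), Pfkl (-0.27 to 0.00) and Pdk2 (-0.21 to 0.03) ranged across 0 there. In pools against whole marrow the sign turned after 75th percentile centring for Hk1 (-0.07) and Ldha (-0.05), after cyclic loess for Hk1 (-0.18), Eno2 (0.04), Ldha (-0.11), Pdk3 (-0.01) and Pdk4 (0.05) and with array weights for Pdk4 (0.01). With any 1 array left out, Hk1 (-0.06 to 0.19), Pdk4 (-0.06 to 0.02), Ldha (-0.06 to 0.17), Bpgm (-0.55 to 0.03), Pfkp (-0.36 to 0.09) and Eno2 (-0.06 to 0.02) ranged across 0 there.

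With 3 arrays per group, a p that misses the threshold does not show that values were alike. Aldoc, Eno2 and Pdk4 lay below the median intensity in all groups, and Ldhb did in leukemia, so the size of their differences is limited by background. Levels of different probe sets cannot be set against each other.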
